A study of Mus musculus with 35 samples.

Results

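Gastrocnemius muscle, the large calf muscle of the mouse, was compared directly between 24-month-old PGC-1α transgenic and 24-month-old PGC-1α knockout males. The comparison takes 12 of the series' 35 RNA sequencing libraries, 6 from transgenic and 6 from knockout muscle, chosen by genotype and age. In the figures these groups are written mTG and mKO. Wildtype (WT) muscle of 24 months (6 libraries) placed each gene relative to an unmodified animal, and transgenic (6) and knockout (5) muscle of 3 months gave the same contrast in young adults. WT libraries of 3 months (6) were in no contrast. They entered the estimate of the spread and, as all 35 libraries did, the gene filter and the scaling. The labels describe the replicates of a condition as biological and the sample as total RNA of whole muscle. The promoter of the transgene, the deleted exons, the cells in which the gene was deleted and the strain are not given in the sources used here. Because whole muscle was sequenced, fewer cells of a type and less RNA per cell cannot be told apart for any gene below.

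Ppargc1a encodes PGC-1α, a coactivator of transcription that binds no DNA itself and is recruited by partner factors such as the oestrogen-related receptors, the nuclear respiratory factors and the PPAR nuclear receptors. In muscle it is known for raising mitochondrial gene expression and fatty acid oxidation, for the oxidative character of fibres and for angiogenic factors, and its own level rises with endurance exercise. The direct contrast sets a gain against a loss of the same coactivator in old muscle.

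Ppargc1a (ENSMUSG00000029167, minus strand, chr5:51454250-51567726 in GRCm38) measured 64.0 to 106 scaled TPM in the 6 transgenic libraries, with a median of 92.0. It measured 6.28 to 10.6 in the 6 knockout libraries, with a median of 7.52, and 3.79 to 4.69 in WT, with a median of 4.17. Scaled TPM is the deposited TPM, a length-corrected share of transcripts, divided by a library factor that sets the median gene equal between libraries. Every transgenic library lay far above every knockout library, and every knockout library lay above every WT library. The transgenic minus knockout difference was 3.31 ± 0.19 on the log2(scaled TPM + 1) scale (SE, n = 6 and 6, limma adjusted p = 6.1e-16), and an exact permutation test over all assignments of the 12 libraries gave two-sided p = 0.00216, the smallest it can give. The knockout level exceeded WT by 0.80 (limma adjusted p = 0.0024). The table gives 1 value for the whole gene, and which exons were deleted is not given in the sources used here, so this value checks the transgenic label but not the knockout label.

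**Figure D1:**
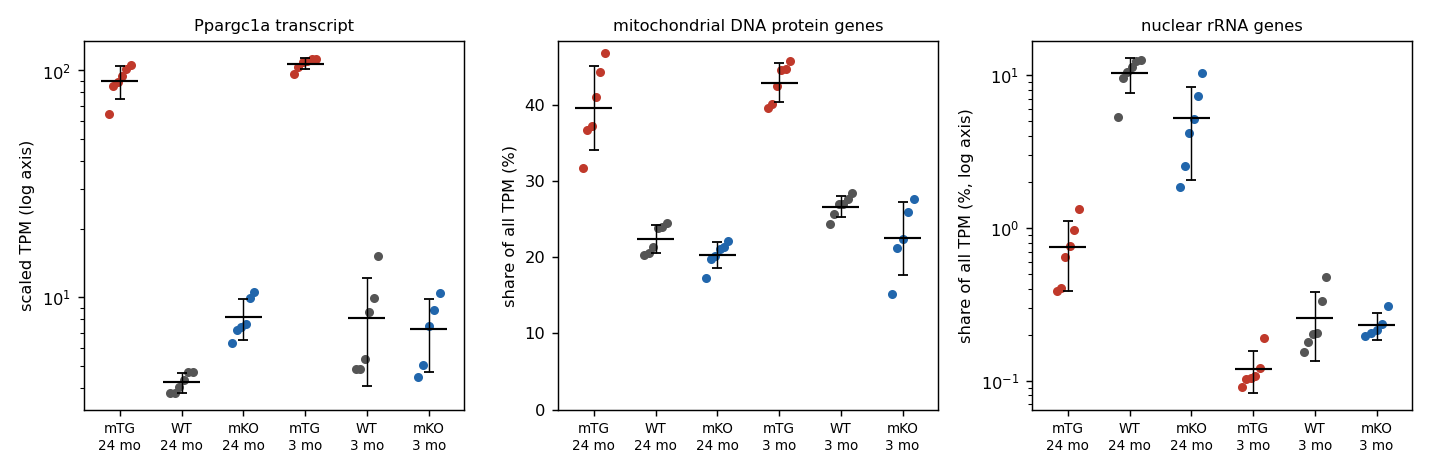
Ppargc1a in scaled TPM (left, log axis), the share of TPM from the protein genes of mitochondrial DNA (middle, percent) and the share of TPM from nuclear ribosomal RNA (right, percent, log axis), with 1 point per library in each of the 6 groups and bars for mean ± SD. Transgenic libraries of 24 months sit at 64.0 to 106 scaled TPM of Ppargc1a against 6.28 to 10.6 in the knockout, and at 31.7% to 46.7% mitochondrial share against 17.3% to 22.1%.

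The composition of the libraries differed with genotype. Protein genes of mitochondrial DNA made up 39.6% ± 5.50 of TPM in transgenic and 20.3% ± 1.66 in knockout muscle (SD, n = 6 each; exact permutation test, two-sided, p = 0.00216). Nuclear ribosomal RNA made up 0.748% ± 0.359 against 5.25% ± 3.20, a log2 difference of -2.71 (exact permutation test, two-sided, p = 0.00216), and WT stood at 10.2% ± 2.65. Nuclear protein-coding genes were left with 36.4% ± 6.82 against 58.4% ± 3.20. Because TPM adds to a fixed total, genes were compared after median-of-ratios scaling, whose factors were 0.641 to 0.756 in transgenic and 1.156 to 1.436 in knockout libraries. Without it the median gene would read 0.66 lower in the transgenic muscle on the log2 scale, and each direction below is relative to that median gene. The transgenic library in column MCK_SO_17 stood apart from the other 5, with the lowest mitochondrial share (31.7%) and the highest nuclear protein-coding share (48.3%). All 8 skeletal muscle defining markers were measured in every group, at a summed level of 54590 to 101559 scaled TPM in transgenic and 66936 to 75800 in knockout libraries. The highest sum of these 12 libraries was a transgenic one, and the part of composition in the results below was not tested beyond the alternatives named.

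Of the 12399 genes tested, 3392 (27.4%) were higher and 3438 (27.7%) were lower in transgenic than in knockout muscle at an adjusted p under 0.05, together 6830 genes (55.1%). Without scaling the split was 695 higher and 9559 lower, and with TPM rescaled over nuclear protein-coding genes it was 2235 and 4735. In 2158 genes (17.4%) all 6 transgenic libraries lay above all 6 knockout libraries, and in 2007 (16.2%) all lay below. With a change of at least 1.5-fold as well, 1609 genes (13.0%) were higher and 1021 (8.23%) lower. So under this scaling the changes of that size leaned to the transgenic side, and the split by size was not computed under the others. The even count without a fold minimum goes with a scaling that sets the median difference near 0 (-0.01), so it is not a result of its own.

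WT muscle of the same age lay between the genotypes for most of the larger changes. Of the 1609 higher genes, the WT mean fell between both genotypes in 1426 (88.6%), and of the 1021 lower genes in 798 (78.2%). Without the fold minimum it did so in 78.4% of the 3392 higher and 68.5% of the 3438 lower genes. Genes chosen for a wide gap between the genotypes leave more room for the WT mean inside it. No share over genes not chosen by that gap was computed, so these shares describe the chosen genes only. Among the 1609 higher genes, 1436 were also higher in transgenic than in WT muscle, and 733 were lower in knockout than in WT muscle. Both held for 626 genes, the transgenic side alone for 794 and the knockout side alone for 107. Among the 1021 lower genes the same counts were 858, 418, 306, 500 and 112. Over all genes tested, 5941 (47.9%) differed between transgenic and WT and 2809 (22.7%) between knockout and WT. With the ribosomal RNA share as covariate those counts were 1722 and 1894, so their order turned, and WT had the highest ribosomal RNA share of the 3 groups. These comparisons share libraries with the direct one, so they locate a change and do not repeat it.

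The oxidative phosphorylation genes formed a uniform block. All 36 nuclear subunits of complex I (NADH dehydrogenase), all 4 of complex II (succinate dehydrogenase), all 9 of complex III and all 15 genes of complex IV (cytochrome c oxidase) and cytochrome c were higher in transgenic muscle, as were 15 of 16 genes of ATP synthase. Their median differences were 1.51, 1.67, 1.73, 1.55 and 1.65 on the log2 scale, against -0.01 over all genes and 27.4% of all genes higher. Without scaling, 30 of 36, 3 of 4, 9 of 9, 14 of 15 and 14 of 16 were still higher and 1 complex II gene was lower. Without the library MCK_SO_17 the counts were as given, with medians of 1.41, 1.65, 1.59, 1.43 and 1.54.

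Sdhb, the iron-sulphur subunit of succinate dehydrogenase, measured 739 to 1189 scaled TPM (median 826) in transgenic, 300 to 379 (median 327) in WT and 174 to 198 (median 189) in knockout libraries. The 3 groups did not overlap, and the difference was 2.21 ± 0.10 (limma adjusted p = 4.28e-18). Cox7a1, the muscle isoform of a small cytochrome oxidase subunit, measured 1100 to 2601 (median 1316), 580 to 836 (median 682) and 201 to 262 (median 226) in the same order. All transgenic libraries were again above WT and all knockout libraries below it, by 1.07 and -1.61 on the log2 scale. Atp5g1, which encodes a c-ring subunit of ATP synthase, measured 1770 to 3917 (median 1811) in transgenic and 316 to 352 (median 331) in knockout libraries. Its difference of 2.71 ± 0.16 (limma adjusted p = 7.81e-16) had MCK_SO_17 as the highest transgenic library. Sister gene Atp5g2 was the ATP synthase gene that did not pass, at 23.4 to 233 scaled TPM in transgenic and 7.90 to 93.6 in knockout libraries, which overlapped. Its difference was 1.03 ± 0.58 (limma adjusted p = 0.132).

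The 13 protein genes of mitochondrial DNA were higher as well, all 13 of them, with a median of 1.62 (11 of 13 without scaling). mt-Atp6, an ATP synthase subunit, measured 32812 to 67977 scaled TPM (median 48641) in transgenic and 5505 to 8784 (median 6353) in knockout libraries, and the groups did not overlap. Its difference was 2.80 ± 0.15 (limma adjusted p = 1.5e-16). The complex I gene mt-Nd1 measured 28826 to 51365 (median 41867) against 12209 to 14999 (median 14301), without overlap. mt-Co3, a cytochrome oxidase subunit, differed by 1.94 ± 0.11 (limma adjusted p = 2.4e-16), but by 0.20 (limma adjusted p = 0.0597) under quantile normalization, which sets the highest values of all libraries equal. Unprocessed pseudogenes, a class that holds nuclear copies of mitochondrial DNA, took 20.3% of TPM in transgenic and 10.5% in knockout libraries. Reads shared between such copies and the mitochondrial genes cannot be told apart in a gene-level table, so these levels are uncertain.

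Promoters are shown for a few members of these blocks and for Got1 and Perm1 from other lists. They are shown because the oestrogen-related receptors, the best-known partners of PGC-1α in muscle, read the letters AAGGTCA. The windows run over 300 bases around the start site, mostly upstream of it, come from RefSeq (GRCm38.p6) and are written 5′ to 3′ on the strand of the gene. Capitals mark AAGGTCA or, where the match is on the opposite strand, its reverse complement TGACCTT. The genes are Sdhd (complex II; chr9:50603800-50604099, minus strand), Atp5g3 and Atp5l (ATP synthase; chr2:73911277-73911576 and chr9:44920693-44920992, both minus strand), Got1 (an aspartate aminotransferase; chr19:43524556-43524855, minus strand) and Perm1 (a PGC-1 and ERR induced regulator of muscle; chr4:156215677-156215976, plus strand). They were chosen after their values and matches were known.
Sdhd: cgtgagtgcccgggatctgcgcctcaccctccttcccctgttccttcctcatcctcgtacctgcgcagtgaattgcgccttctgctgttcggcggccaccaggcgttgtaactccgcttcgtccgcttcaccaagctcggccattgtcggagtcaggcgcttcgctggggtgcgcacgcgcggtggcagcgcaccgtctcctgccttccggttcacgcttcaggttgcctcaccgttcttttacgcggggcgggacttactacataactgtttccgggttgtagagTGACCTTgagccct
Atp5g3: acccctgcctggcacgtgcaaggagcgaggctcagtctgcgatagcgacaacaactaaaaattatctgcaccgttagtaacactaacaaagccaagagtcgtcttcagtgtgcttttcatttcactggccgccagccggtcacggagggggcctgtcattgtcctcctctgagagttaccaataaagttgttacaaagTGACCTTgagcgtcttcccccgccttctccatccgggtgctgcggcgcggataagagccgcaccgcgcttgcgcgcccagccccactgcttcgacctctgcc
Atp5l: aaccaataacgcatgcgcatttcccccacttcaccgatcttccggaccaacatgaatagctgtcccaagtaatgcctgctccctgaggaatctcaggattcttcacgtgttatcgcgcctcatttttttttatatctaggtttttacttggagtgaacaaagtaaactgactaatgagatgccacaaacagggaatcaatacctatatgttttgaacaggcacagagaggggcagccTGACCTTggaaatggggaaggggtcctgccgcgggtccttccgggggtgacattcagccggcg
Got1: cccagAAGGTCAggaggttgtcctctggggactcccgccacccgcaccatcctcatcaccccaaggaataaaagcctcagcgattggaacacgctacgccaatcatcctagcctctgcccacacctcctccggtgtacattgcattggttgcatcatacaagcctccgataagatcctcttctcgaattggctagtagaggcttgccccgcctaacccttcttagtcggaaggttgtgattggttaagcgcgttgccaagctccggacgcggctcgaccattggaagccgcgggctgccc
Perm1: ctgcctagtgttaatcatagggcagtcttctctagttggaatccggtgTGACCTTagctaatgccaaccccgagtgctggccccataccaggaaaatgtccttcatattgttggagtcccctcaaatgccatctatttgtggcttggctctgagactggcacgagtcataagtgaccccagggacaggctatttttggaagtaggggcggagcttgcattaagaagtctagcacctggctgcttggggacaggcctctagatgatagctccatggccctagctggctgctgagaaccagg

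Counted from the annotated start site, the matches began at 36 in Sdhd, -52 in Atp5g3, -13 in Atp5l, -245 in Got1 and -202 in Perm1. Searched on both strands, AAGGTCA stood in 1550 of 32851 RefSeq promoters (4.72%). Among genes with a promoter it stood in 68 of 1180 (5.76%) that were at least 1.5-fold higher, 28 of 694 (4.03%) that were lower and 130 of 3826 (3.40%) that were not called. ATP synthase had it in 5 of 14 promoters (35.7%), mitochondrial import in 4 of 27 (14.8%), complex I in 3 of 32 (9.38%), and complexes III and IV with cytochrome c in none of 5 and 12. Among lists that were not mostly higher, slow fibre genes had it in 2 of 11 (18.2%) and glycolysis and glycogen genes in 2 of 22 (9.09%). Fast glycolytic fibre genes and atrophy genes had it in none of 9 and 16. A longer form, TNAAGGTCA, which contains AAGGTCA, stood in 9 of 1180 higher (0.763%) and 9 of 694 lower genes (1.30%), against 26 of 3826 not called (0.68%). Over all tested genes with a promoter, AAGGTCA stood in 3.95% and TNAAGGTCA in 0.863%. The ETS letters CCGGAAGT, read by GABP among other factors, stood in 7.54% of the higher, 4.03% of the lower and 11.1% of the genes not called. The core letters of the NRF1 element, GCATGCGC, stood in 6.44%, 3.31% and 6.66%. Over all tested genes these shares were 9.56% and 6.18%. A match of letters is a description of the window and not a binding site.

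The 5 genes with printed promoters themselves differed widely in level. Sdhd, a membrane anchor of succinate dehydrogenase, measured 313 to 400 scaled TPM in transgenic and 92.3 to 105 in knockout libraries, a difference of 1.78 ± 0.07. Atp5g3 measured 1904 to 2955 against 416 to 468 (2.28 ± 0.11), and Atp5l 1395 to 2718 against 457 to 636 (1.71 ± 0.16). Got1 measured 365 to 452 against 73.9 to 80.8 (2.40 ± 0.13). Perm1 measured 75.5 to 95.2 against 27.6 to 39.7, and 27.5 to 38.0 in WT (1.35 ± 0.10). In none of the 5 did the transgenic and knockout libraries overlap. Perm1 alone among them showed no test-passing difference between knockout and WT (-0.05, limma adjusted p = 0.77).

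**Figure D2:**
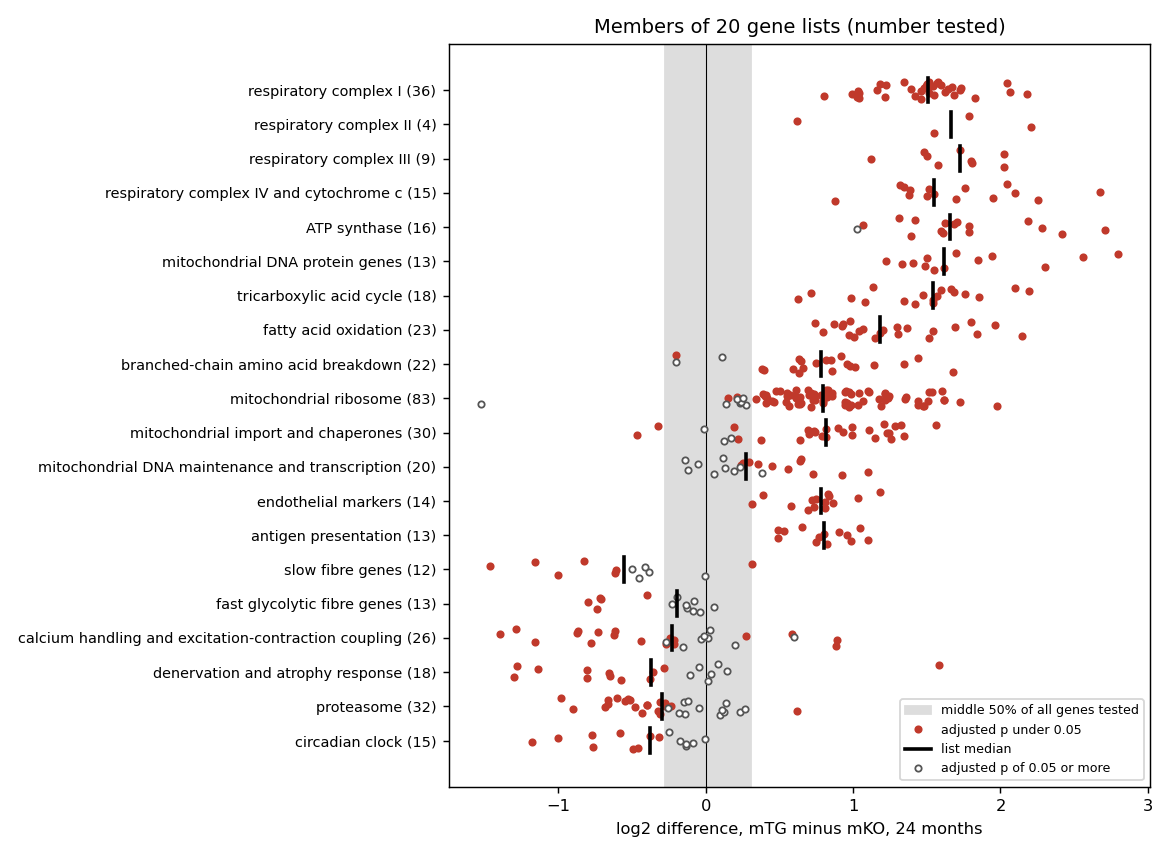
Transgenic minus knockout differences (log2) of the measured members of 20 gene lists, 1 point per gene, with list medians as bars and the middle 50% of all genes tested as the grey band. The respiratory complexes, the tricarboxylic acid cycle and fatty acid oxidation lie wholly or nearly wholly to the higher side, with medians of 1.18 to 1.73, while the slow fibre, proteasome and atrophy lists have medians of -0.55, -0.29 and -0.37.

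The tricarboxylic acid cycle and fatty acid oxidation were higher throughout. All 18 genes of the tricarboxylic acid cycle (median 1.54) and all 23 of fatty acid oxidation (median 1.18) were higher in transgenic muscle, 15 and 14 of them also without scaling. Dlst, a subunit of the oxoglutarate dehydrogenase complex, measured 158 to 196 scaled TPM (median 177) in transgenic and 44.4 to 50.8 (median 48.0) in knockout libraries. WT lay at 52.2 to 63.1, above the knockout and well below the transgenic libraries. Its difference was 1.86 ± 0.07 (limma adjusted p = 6.63e-20), the smallest adjusted p of the list together with Sucla2, a succinate-CoA ligase subunit (1.48 ± 0.06). Acadvl, the very-long-chain acyl-CoA dehydrogenase, measured 335 to 615 against 82.6 to 89.9 scaled TPM. Its groups did not overlap, and the difference was 2.15 ± 0.13 (limma adjusted p = 4.59e-15). Mpc1 and Mpc2, which form the mitochondrial pyruvate carrier, differed by 1.57 ± 0.08 and 2.16 ± 0.15. But their list of glucose uptake and fuel choice had 3 of 15 genes higher and 4 lower (median -0.06), against 27.4% and 27.7% of all genes.

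Amino acid and ketone metabolism followed with smaller medians. Of 22 genes of branched-chain amino acid breakdown, 19 were higher and 1, the carrier gene Slc25a44 (-0.20 ± 0.07), lower (median 0.78), but without scaling 4 were higher and 8 lower. Bckdha, a subunit of the branched-chain ketoacid dehydrogenase, measured 94.5 to 195 scaled TPM in transgenic and 30.8 to 40.4 in knockout libraries and did not overlap (1.68 ± 0.14). Bckdk, the kinase that inhibits that enzyme, was also higher, at 63.1 to 98.8 against 48.3 to 51.7 (0.59 ± 0.08). Got2, the mitochondrial aspartate aminotransferase, measured 375 to 452 against 60.0 to 66.2, with WT at 91.4 to 124. The ketone body and kynurenine list, which holds Got2, had no larger change than its 2.67 ± 0.11 (limma adjusted p = 4.19e-19), with no overlap between any of the 3 groups. Kyat3, a kynurenine aminotransferase, measured 10.4 to 14.6 against 2.96 to 4.20 (1.48 ± 0.10), and 7 of 9 genes of the list were higher and 1, the alanine aminotransferase Gpt2 (-0.37 ± 0.13), lower (median 1.14).

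Genes that build the mitochondrial translation system were higher with a lower median than the respiratory chain they serve. Of 83 genes of the mitochondrial ribosome, 76 were higher and 0 lower at 24 months, with a median of 0.79. That count depended on scaling: 23 were higher and 31 lower without it, and 74 higher and 0 lower with TPM rescaled over nuclear protein-coding genes. Mrpl12, a large-subunit protein, measured 151 to 271 scaled TPM (median 177) in transgenic, 73.2 to 90.8 in WT and 43.2 to 51.6 (median 46.8) in knockout libraries. The groups were fully separated, with a difference of 1.97 ± 0.12 (limma adjusted p = 3.04e-15). Dap3, a small-subunit protein, measured 106 to 152 against 34.8 to 41.3 (1.60 ± 0.10), and its knockout and WT levels did not differ by the test (-0.26, limma adjusted p = 0.058). Mrpl23 had the lowest estimate of the list, -1.52 ± 0.83 (limma adjusted p = 0.121), from knockout libraries that spread from 0.345 to 18.4 scaled TPM.

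Of 39 translation factors and tRNA enzymes of the organelle, 31 were higher and 1 lower (median 0.56; 8 higher and 19 lower without scaling). Tufm, the mitochondrial elongation factor Tu, measured 106 to 151 against 36.2 to 50.6 scaled TPM, with no overlap (1.57 ± 0.10), and Qrsl1, a subunit of the glutaminyl-tRNA amidotransferase, differed by 1.65 ± 0.09. The lower one was Lars2, the mitochondrial leucyl-tRNA synthetase, at 336 to 637 scaled TPM in transgenic, 536 to 3241 in knockout and 2029 to 4365 in WT libraries. Transgenic and knockout libraries overlapped, and the difference was -1.46 ± 0.33 (limma adjusted p = 0.000374). Lars2 levels moved with the nuclear ribosomal RNA share, which was 0.384% to 1.33% in transgenic and 1.85% to 10.4% in knockout libraries. With that share as a covariate the estimate turned to 1.04, and at 3 months, where the shares averaged 0.119% and 0.231%, it was 0.43 (limma adjusted p = 0.32).

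Mitochondrial import and chaperone genes were higher in 25 of 30 and lower in 2, Timm17b and Yme1l1 (-0.46 ± 0.11 and -0.32 ± 0.06), with a median of 0.82 (10 and 9 without scaling). Among all genes tested, 27.4% were higher and 27.7% lower. Hspa9, the heat shock chaperone of the matrix, measured 181 to 213 against 85.4 to 96.0 scaled TPM and did not overlap (1.11 ± 0.06). Of 20 genes of mitochondrial DNA maintenance and transcription, 11 were higher and 0 lower, with a median of only 0.27 (1 higher and 16 lower without scaling). Tfam, which packages mitochondrial DNA and starts its transcription, measured 35.4 to 44.7 in transgenic, 16.1 to 23.4 in knockout and 17.7 to 25.1 in WT libraries. The knockout and WT ranges nearly coincided, and the transgenic libraries stood above both (0.92 ± 0.09 against the knockout, limma adjusted p = 5.05e-11). Without scaling its difference was 0.04 (limma adjusted p = 0.701). Of 20 mitochondrial dynamics and mitophagy genes 9 were higher and 5 lower, but 4 and 8 with TPM rescaled over nuclear protein-coding genes, 6 and 7 under quantile normalization and 1 and 17 without scaling. The lower ones included the mitophagy receptors Bnip3 (-0.52 ± 0.06) and Fundc1 (-0.59 ± 0.07). Mfn1, an outer-membrane fusion GTPase, measured 231 to 294 against 58.7 to 71.9 (1.99 ± 0.13), and Mtfp1, an inner-membrane fission factor, 69.5 to 110 against 10.2 to 13.1 (2.78 ± 0.13).

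The 12 largest rises by the naming rule covered transcripts of several functions. BC049352 (ENSMUSG00000091996, chr9:45182007-45250020) measured 45.1 to 63.8 scaled TPM in transgenic libraries, at most 0.151 in knockout libraries and 0.36 to 2.25 in WT. Kcng4 (chr8:119623854-119635680), a modifier subunit of voltage-gated potassium channels, measured 35.4 to 45.3, 0.725 to 1.03 and 3.07 to 4.95 in the same order. Both were near absent from knockout muscle and abundant in transgenic muscle, with differences of 5.56 ± 0.16 and 4.47 ± 0.16 (limma adjusted p = 2.62e-23 and 5.04e-21). Ckmt2, the sarcomeric mitochondrial creatine kinase, measured 2275 to 2940 against 256 to 299, with WT at 561 to 761 (3.25 ± 0.14). Ppif, the mitochondrial cyclophilin of the permeability transition, measured 61.0 to 75.1 against 8.24 to 9.96 (2.83 ± 0.09). Phyh, the peroxisomal phytanoyl-CoA hydroxylase, measured 326 to 397 against 43.5 to 49.8 (2.90 ± 0.12). The remaining rises were Iqsec2 (3.17), BC048679 (3.06), Adig (adipogenin, 2.96), Rangrf (2.90), the carbonic anhydrase Car2 (2.81), Mtfp1 and Ppargc1a itself. In all 12 no transgenic library overlapped a knockout library, as the rule required.

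Falls were led by Igfn1 (chr1:135953578-136006342), which encodes an immunoglobulin and fibronectin domain protein of the muscle Z-disc. It measured 0.379 to 2.51 scaled TPM in transgenic, 29.1 to 48.4 in knockout and 1.87 to 5.27 in WT libraries. The knockout libraries alone were high, and the difference was -4.13 ± 0.26 (limma adjusted p = 5.98e-15). Mss51 (chr14:20482867-20496901), a muscle gene known for restraining oxidative metabolism, measured 2.97 to 20.3, 61.9 to 132 and 54.8 to 219 in the same order. Here the transgenic libraries alone were low, and knockout and WT overlapped (transgenic minus knockout -3.56 ± 0.31, knockout minus WT -0.33, limma adjusted p = 0.48). Car3, the muscle carbonic anhydrase, moved on both sides, at 241 to 416, 2566 to 3164 and 603 to 758 (-3.12 ± 0.15). Gamt, the enzyme that completes creatine synthesis, also moved on both sides, at 0.840 to 2.29, 18.3 to 23.4 and 7.79 to 8.92 (-3.08 ± 0.19). Prkag3, the gamma-3 subunit of AMP-activated protein kinase, measured 8.68 to 18.8, 79.7 to 96.9 and 64.0 to 86.3, again low in the transgenic libraries alone (-2.62 ± 0.14). The remaining falls were Pla2g5 (-3.10), Odf3l2 (-2.86), the cardiac actin Actc1 (-2.86), the potassium channel subunit Kcnab1 (-2.49), the channel gene Panx1 (-2.44), Tmem100 (-2.39) and Sytl2 (-2.39).

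**Figure D3:**
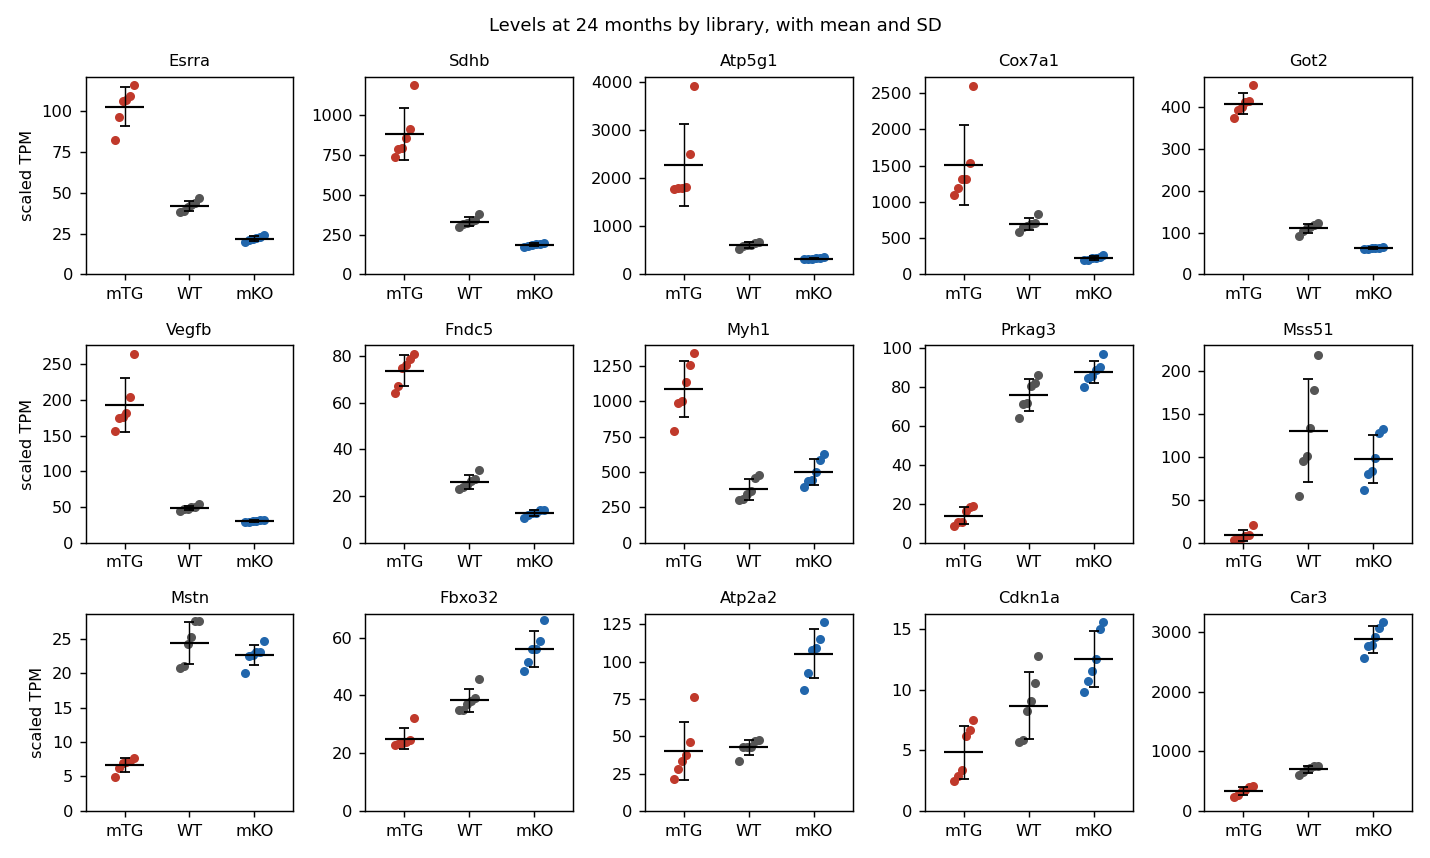
Scaled TPM of 15 genes in the 24-month transgenic, WT and knockout libraries, 1 point per library on linear axes, with bars for mean ± SD. Esrra, Sdhb, Cox7a1 and Got2 step down from transgenic through WT to knockout, Mss51, Prkag3 and Mstn are low in transgenic muscle only, and Atp2a2 is high in knockout muscle only.

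Of 26 coactivators and partners of PGC-1α, 9 were higher and 10 lower in transgenic muscle (median -0.08), where 27.4% and 27.7% of all genes were. Esrra, the oestrogen-related receptor alpha, measured 82.3 to 116 scaled TPM in transgenic, 38.0 to 46.7 in WT and 19.9 to 23.9 in knockout libraries. No group overlapped another, and the difference was 2.18 ± 0.11 (limma adjusted p = 7.04e-17). Esrrb rose from 0.665 to 1.17 in knockout to 3.95 to 6.19 in transgenic libraries (1.74 ± 0.10), whereas the third receptor, Esrrg, was lower, at 1.87 to 5.16 against 6.38 to 8.76 (-0.83 ± 0.16). Sirt3, a mitochondrial deacetylase, measured 22.9 to 32.5 against 4.22 to 6.67 (2.09 ± 0.12). Ppargc1b, the sister coactivator, was lower at 0.597 to 1.27 against 1.60 to 2.62, with WT at 1.42 to 2.73 (-0.73 ± 0.11, limma adjusted p = 8.08e-07). Nrf1 and Gabpa, the nuclear respiratory factors, had overlapping groups and differences of 0.08 ± 0.09 and 0.06 ± 0.13 (limma adjusted p = 0.473 and 0.729). Without scaling those estimates were -0.61 and -0.69, close to the shift of the median gene.

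Fibre-type genes gave a mixed picture. Of 12 slow fibre genes, 1, the calcium store gene Casq2 (0.31 ± 0.12), was higher and 6 were lower in transgenic than in knockout muscle (median -0.55). Of all genes, 27.4% were higher and 27.7% lower. Against WT, 11 of 12 were higher in knockout muscle (median 0.78, with 10.4% of all genes higher) and 3 in transgenic muscle (24.0% of all genes higher). Atp2a2, the slow and cardiac calcium pump, measured 21.4 to 76.2 scaled TPM in transgenic, 33.7 to 47.4 in WT and 80.9 to 127 in knockout libraries. The knockout libraries lay above all others, and transgenic and WT overlapped (-1.46 ± 0.25, limma adjusted p = 1.03e-05). Myh7, the slow myosin heavy chain, measured 87.9 to 189 in transgenic and 124 to 222 in knockout libraries, which overlapped (-0.45 ± 0.30, limma adjusted p = 0.21). Both genotypes exceeded WT, at 33.7 to 108, by 1.43 and 1.88. Without scaling the Myh7 difference was -1.35 and passed the test (limma adjusted p = 9.89e-05), as did that of Myh2, the fast oxidative myosin (-1.21, against -0.30 ± 0.16 with scaling). Myh2 also passed under quantile normalization (-0.82), with TPM rescaled over nuclear protein-coding genes (-0.51) and without MCK_SO_31, its highest transgenic library (-0.40, limma adjusted p = 0.0396). Tnnt1, slow troponin T, differed by -0.61 ± 0.23 (limma adjusted p = 0.0274), and leaving out MCK_SO_25, MCK_SO_59, MCK_SO_61, MKO_SO_32 or MKO_SO_70 moved its adjusted p to between 0.0536 and 0.068.

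Of 5 genes placed in the fast oxidative list 2, Myh1 and Mb, were higher and 2, Csrp3 (-0.84 ± 0.23) and Myl6b (-0.42 ± 0.10), lower (median -0.30). Csrp3 and Myl6b are not particular to fast oxidative fibres, so these counts do not describe that fibre type alone. Among all genes tested, 27.4% were higher and 27.7% lower. Myh1, the type IIx myosin, measured 791 to 1342 in transgenic and 393 to 628 scaled TPM in knockout libraries and did not overlap (1.12 ± 0.16; 0.22 without scaling, limma adjusted p = 0.186). Myoglobin (Mb), the oxygen store of oxidative fibres, measured 4216 to 6017 against 1933 to 2427 (limma adjusted p = 2.66e-07, but 0.0854 with a difference of 0.26 without scaling). Myh4, the IIb myosin of fast glycolytic fibres, measured 5838 to 7845 and 6377 to 7568, with overlapping groups (-0.04 ± 0.08) and both genotypes above WT by 0.56 and 0.60. It was called lower in transgenic muscle under quantile normalization (-0.40, limma adjusted p = 0.00105), with TPM rescaled over nuclear protein-coding genes (-0.25, limma adjusted p = 0.0103) and without scaling (-0.95). None of 13 fast glycolytic genes was higher and 5 were lower (median -0.19), 7 were lower without MCK_SO_17, and all 13 with TPM rescaled over nuclear protein-coding genes. Pvalb, the calcium buffer parvalbumin, measured 2523 to 7318 against 5239 to 6663, overlapping through MCK_SO_17, its highest library (-0.72 ± 0.19). Its call and that of Actn3, the fast-fibre alpha-actinin (-0.80 ± 0.21), were lost with the ribosomal RNA share as covariate (limma adjusted p = 0.336 and 0.216), where 1 gene of the list was still lower.

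Genes of calcium handling were more often lower, 14 of 26 against 4 higher (median -0.23, with 27.7% of all genes lower). Jph2, which tethers the sarcoplasmic reticulum to the cell membrane, measured 36.4 to 67.4 against 100 to 112 scaled TPM without overlap (-1.16 ± 0.10). Ppp3cb, a catalytic subunit of calcineurin, measured 45.2 to 54.4 against 86.8 to 100 (-0.86 ± 0.06), and Camk2b, a calmodulin-dependent kinase subunit, differed by -0.87 ± 0.08. Hrc, a calcium-binding protein of the sarcoplasmic reticulum, was higher at 339 to 491 against 199 to 229 (0.89 ± 0.08; -0.02 without scaling). At the neuromuscular junction 3 of 16 genes were higher and 4 lower, against 27.4% and 27.7% of all genes. Chrnb1, the beta subunit of the acetylcholine receptor, measured 8.13 to 11.5 against 23.1 to 29.5 with WT between at 16.3 to 21.1 (-1.28 ± 0.08). Dok7, an activator of the junctional kinase MuSK, went the other way, at 5.02 to 9.60 against 2.07 to 2.88 (1.01 ± 0.15), while Musk itself differed by -0.80 ± 0.16.

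Of 18 genes of the denervation and atrophy response, 11 were lower and 1 higher at 24 months (median -0.37), where 27.7% and 27.4% of all genes were. With the ribosomal RNA share as covariate 5 genes of this list were lower. Fbxo32, the atrophy ubiquitin ligase atrogin, measured 22.7 to 32.3 scaled TPM in transgenic, 34.9 to 45.7 in WT and 48.3 to 66.1 in knockout libraries. The 3 groups were separated, with a difference of -1.14 ± 0.10 (limma adjusted p = 2.68e-11). Trim63, the ligase MuRF, measured 39.0 to 66.3 against 81.4 to 93.1 (-0.80 ± 0.11). Cdkn1a, a cell-cycle inhibitor, measured 2.48 to 7.48 against 9.78 to 15.6, also without overlap (-1.28 ± 0.22, limma adjusted p = 1.04e-05). The higher one was Mt1, a metallothionein, at 33.4 to 51.4 against 8.96 to 20.3 (1.59 ± 0.16). Of 32 proteasome genes, 19 were lower and 1, Psmb2 (0.62 ± 0.09), was higher (median -0.29). With the ribosomal RNA share as covariate 9 proteasome genes were lower. Psmd8, a lid subunit of the regulatory particle, measured 68.3 to 112 against 161 to 193 (-0.98 ± 0.11).

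Secreted factors of muscle were higher in 9 of 18 and lower in 3 (median 0.49; 5 and 8 without scaling), where 27.4% and 27.7% of all genes were. Vegfb, a vascular growth factor, measured 156 to 265 scaled TPM in transgenic, 44.8 to 54.2 in WT and 28.9 to 32.3 in knockout libraries. Every group was distinct, and the difference was 2.61 ± 0.11 (limma adjusted p = 8.55e-19). Fndc5, the precursor of irisin, measured 64.2 to 81.0, 22.9 to 31.1 and 10.6 to 13.9 in the same order, again fully separated (2.46 ± 0.15). Il15, a cytokine made by muscle, measured 17.4 to 26.4 against 3.58 to 6.22 (1.96 ± 0.13). Vegfa, the main angiogenic factor, measured 67.8 to 166 against 55.0 to 69.4 and overlapped by its lowest transgenic library (1.07 ± 0.16; 0.17 without scaling, limma adjusted p = 0.394). Mstn, myostatin, the negative regulator of muscle mass, was lower at 4.96 to 7.74 against 20 to 24.6, with WT at 20.8 to 27.5 (-1.63 ± 0.09, limma adjusted p = 4.77e-16). Gdf11 and Angpt1 were the other lower members (-0.74 ± 0.12 and -0.40 ± 0.09).

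Markers of other cell types in the tissue moved with genotype. All 14 endothelial markers were higher in transgenic muscle (median 0.78), and their summed level was 210 to 257 scaled TPM in transgenic, 125 to 164 in WT and 105 to 128 in knockout libraries. No transgenic sum overlapped another group. Tie1, an endothelial receptor kinase, measured 6.91 to 7.95 against 3.41 to 3.90 (0.86 ± 0.05, limma adjusted p = 2.94e-15), and Pecam1, an endothelial adhesion protein, 15.1 to 21.9 against 9.89 to 11 (0.69 ± 0.08). Without scaling 0 of 14 were higher and 2 lower, Tie1 differed by 0.10 (limma adjusted p = 0.231) and Pecam1 by -0.15, so the direction of this group holds relative to the median gene and not in raw TPM. With TPM rescaled over nuclear protein-coding genes 11 were higher. Vegfa and Vegfb moved with these markers, and their part in that difference was not tested.

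All 13 measured antigen presentation genes (median 0.80) and 12 of 13 interferon response genes (median 0.61) were higher, 13 and 10 with TPM rescaled over nuclear protein-coding genes, and 0 and 1 without scaling. Summed levels were 415 to 617 against 233 to 282 scaled TPM for antigen presentation and 44.4 to 72.1 against 28.2 to 33.3 for the interferon genes, neither overlapping. B2m, the light chain of MHC class I, measured 172 to 229 against 101 to 115 (0.90 ± 0.10; 0.00 without scaling), and Cd74, the MHC class II invariant chain, 39.7 to 76.8 against 20.3 to 32.5 (1.1 ± 0.17). Macrophage and myeloid markers were higher in 8 of 12, against 27.4% of all genes (median 0.32), with sums of 66.4 to 123 against 48.8 to 67.8 that overlapped. With TPM rescaled over nuclear protein-coding genes 3 of them were higher, and without scaling 6 were lower. Of 14 lymphocyte markers only 1 was measured well enough to test, and it did not pass.

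Red cell transcripts were also higher, 5 of 6 with 1 lower (median 1.33; 5 and 1 without scaling), and their summed level was 794 to 1706 scaled TPM in transgenic against 337 to 418 in knockout libraries. Hbb-bt, an adult beta globin, measured 52.6 to 82.5 against 17.6 to 28.2 (1.33 ± 0.18), with no overlap, and the lower one was Bpgm (-0.52 ± 0.09). The alpha globin genes Hba-a1 and Hba-a2 are near-identical copies whose reads may be split, and MCK_SO_17 was their highest library. Adipocyte markers were higher in 4 of 7 (1 without scaling), with sums of 206 to 288 against 126 to 137. The WT sums, 177 to 266, overlapped the transgenic ones. The brown fat marker Ucp1 was listed at 0 in all knockout and all WT libraries of 24 months. Smooth muscle and pericyte markers were higher in 5 of 10 and lower in 1, against 27.4% and 27.7% of all genes. These counts were 1 and 1 with TPM rescaled over nuclear protein-coding genes, and 0 and 8 without scaling. Fibro-adipogenic progenitor markers were higher in 2 and lower in 3 of 12, the lower count being near that share. Satellite cell markers were higher in 1 and lower in 2 of 7, Schwann cell and nerve markers lower in 1 of 5, and tendon markers higher in 3 and lower in 1 of 7. That lower one was Scx, the tendon transcription factor scleraxis, at 0.20 to 1.80 against 6.26 to 9.22 (-2.04 ± 0.15). Without scaling 12 fibro-adipogenic, 6 satellite cell, 5 Schwann cell and nerve and 2 tendon markers were lower, and 0 of each were higher. Of 8 heart markers 3 were tested, 1 was lower, and Myl7, an atrial myosin light chain, was listed at 0 in both genotypes.

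At 3 months the same contrast gave 3222 higher (26.0%) and 3166 lower genes (25.5%), so that 6388 genes (51.5%) differed in all. Of the genes at least 1.5-fold higher at 24 months, 1420 (88.3%) were called higher and 2 lower at 3 months, and of the lower genes 811 (79.4%) were called lower and 1 higher. List medians were of similar size at both ages for complex I (1.51 at 24 and 1.11 at 3 months), the tricarboxylic acid cycle (1.54 and 1.42) and endothelial markers (0.78 and 0.81). The atrophy list had 11 lower genes at 24 months and 5 at 3 months, with medians of -0.37 and 0.04. None of its members but Myh3, the embryonic myosin, passed the test of the age difference itself. The median of the red cell list was 1.33 at 24 and 0.27 at 3 months, and 3 of its 6 members passed that test.

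The transgenic minus knockout difference itself depended on age in 526 genes (4.24%), 207 (1.67%) with a more positive and 319 (2.57%) with a more negative difference at 24 months. This count was unstable: it was 1017 without the knockout library MKO_3248 and 792 without the transgenic library MCK_SO_31. It was 211 without MKO_3259 and 215 without MCK_SO_17, while 105 remained with the ribosomal RNA share as covariate. The genes described next were the 6 largest in each direction.

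Ostn (osteocrin, also called musclin), a peptide secreted by muscle, had the most positive age difference. At 3 months it measured 4.20 to 5.73 scaled TPM in transgenic and 15.5 to 27.4 in knockout libraries, a clear separation with transgenic libraries low. At 24 months it measured 29.9 to 47.3 and 28.8 to 41.9, which overlapped. The contrast was -1.78 at 3 months and 0.14 at 24 months, so the change between ages was 1.92 ± 0.20 (limma adjusted p = 3.27e-07; 1.74 to 2.10 over 38 alternatives, all passing). Srebf1, the lipogenic transcription factor, was lower in transgenic muscle at both ages, but by -2.98 at 3 and -1.75 at 24 months (age difference 1.23 ± 0.27, limma adjusted p = 0.0113). S100a9, a calcium-binding protein of myeloid cells, was 3.41 to 8.28 against 0.125 to 1.33 at 24 months, without overlap, and overlapped at 3 months (age difference 1.86 ± 0.43). Tmem267, Ces1d (a carboxylesterase) and Hba-a2 had age differences of 1.48, 1.35 and 1.26. That of Hba-a2 passed in only 14 of 38 alternatives.

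On the other side, Lrtm1, a transmembrane protein with leucine-rich repeats, measured 2.06 to 4.99 in transgenic, 2.83 to 4.95 in WT and 13.8 to 17.2 scaled TPM in knockout libraries at 24 months. Only the knockout libraries stood out, whereas at 3 months the ranges of 4.51 to 7.54 and 4.45 to 10.9 overlapped (age difference -1.49 ± 0.24, limma adjusted p = 0.000537; passing in 38 of 38 alternatives). Igfn1 fell by more at 24 than at 3 months (-4.13 and -2.40, age difference -1.73 ± 0.38, passing in 35 of 38 alternatives but reading -0.69 and not passing with a pseudocount of 0.1), its knockout libraries lying at 1.54 to 8.43 at 3 months and at 29.1 to 48.4 at 24 months. Kcnab1 measured 0.208 to 0.484 against 1.64 to 2.68 at 3 months and 0.413 to 0.721 against 6.50 to 10.1 at 24 months. Its transgenic libraries were low at both ages, and the age difference was -1.25 ± 0.13 (limma adjusted p = 2.56e-07). Lars2 (-1.89) again moved with the ribosomal RNA share, its age difference being -0.29 with that share as covariate. Akap13, an anchoring protein for protein kinase A, had an age difference of -1.21 ± 0.30. Nnt, the nicotinamide nucleotide transhydrogenase, is listed under 2 identifiers, of which 1 passed (-1.60 ± 0.47, limma adjusted p = 0.0454; 16 of 38 alternatives).

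**Figure D4:**
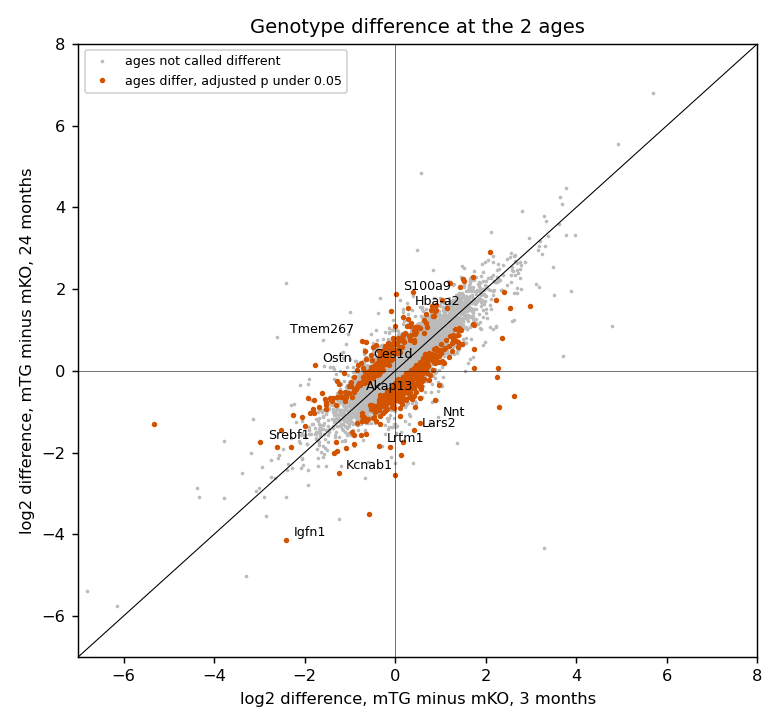
Transgenic minus knockout difference at 24 months (vertical, log2) against that at 3 months (horizontal, log2) for the 12399 genes tested, with the 526 genes whose difference depended on age coloured and the 12 named ones labelled. Most genes lie along the diagonal, Ostn lies at -1.78 and 0.14, and Igfn1 lies at -2.40 and -4.13.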

How the data were processed

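RNA sequencing of total RNA from gastrocnemius was deposited as 1 table of TPM (transcripts scaled to a fixed library total) for 54416 gene identifiers and 35 libraries. The submitters' processing notes name cutadapt 1.16, Salmon 1.1.0, edgeR and GRCm38 without their roles, and per the labels' protocols libraries were made with a TruSeq kit. Read depth is unknown, since the deposited TPM keep none. Precision was therefore judged from the number of libraries and the spread between them. Columns carry group names but no replicate numbers of the labels. SO in a name was read as 24 months, because the MKO columns divide by it into 6 and 5, which are the sizes of the old and young knockout groups. W or WT and MKO were read by name, and MCK as the remaining, transgenic genotype, which no label spells out.

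Gene names came from GENCODE M21 (54163 identifiers matched). Genes with a TPM of at least 1 in at least 5 libraries were kept (12399). TPM were divided by median-of-ratios factors, and log2(scaled TPM + 1) went into limma 3.58.1 (R 4.3.3), which estimated 1 mean for each group and a spread shared by all 35 libraries. Differences are on this scale, which understates the change of low genes. P-values were moderated with a mean trend and adjusted by Benjamini-Hochberg over all genes tested, with 0.05 as threshold. The age difference is the contrast at 24 months minus that at 3 months. Single values were tested by exact permutation. The fit was tested on simulated data. Promoters came from RefSeq (GRCm38.p6) and were searched on both strands.

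The comparison and the gene lists were chosen with earlier results of these data known. Genes were named by rule: Ppargc1a, the 12 largest rises and falls among called nuclear protein-coding genes with a mean of at least 5 scaled TPM in 1 group and no overlap, up to 6 members of smallest adjusted p per list, the 6 largest age differences each way, and list members for their role. Alternatives changed the scaling, filter, pseudocount, fold minimum, libraries and covariates. Figures were drawn with Python 3.11.15 and matplotlib 3.10.9.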

Additional observations from a re-analysis of the deposited data

Results flagged for a closer look

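In 37 of the 300 groups of 24-month libraries examined (each named gene in each genotype), the highest or lowest library lay far from the other 5, where chance alone flags about 1 in 20 groups. Most of these were the transgenic library MCK_SO_17, which also had the lowest mitochondrial DNA share of its group. Its values were the highest of the transgenic group, in scaled TPM, for respiratory chain and ATP synthase genes: Ndufa8 682, Ndufb10 1508, Uqcrfs1 591, Uqcrq 3606, Cox4i1 3628, Cox7a1 2601, Atp5g1 3917, Atp5b 8580, Atp5g3 2955 and Atp5l 2718. They were also the highest for other mitochondrial genes, with Mdh2 at 1571, Acadvl at 615, Echs1 at 121, Bckdha at 195, Mpc2 at 1133, Dap3 at 152 and Phb at 202. The same held for Rangrf at 295, Odf3l2 at 0.827, Actn3 at 3857, Pvalb at 7318, Metrn at 108, Fabp4 at 254, Hba-a1 at 476 and Hba-a2 at 395, while Esrrb at 3.95 was the lowest. Without this library the oxidative lists kept a count of 36 of 36 for complex I and 15 of 16 for ATP synthase.

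Other transgenic libraries stood apart singly. MCK_SO_31 was high for the slow genes Myl2 (548) and Myoz2 (91.8) and for Myh2 (455). MCK_SO_82 was low for Ppif (61.0) and high for Fbxo32 (32.3), and MCK_SO_61 was high for Dok7 (9.60). Among knockout libraries MKO_SO_23 was high for Atp5l (636), Tufm (50.6) and Metrn (21.5), MKO_SO_68 was high for Gabpa (6.52) and MKO_SO_87 was low for Cox4i1 (443).

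The transgenic minus knockout difference changed between 3 and 24 months in 22 named genes by limma's test of the change itself. More positive at 24 months were Ostn (1.92), S100a9 (1.86), Tmem267 (1.48), Ces1d (1.35), Hba-a2 (1.26), Srebf1 (1.23), Hbb-bt (1.15), Rangrf (0.82), Fabp4 (0.73) and Myl1 (0.65). More negative were Lars2 (-1.89), Igfn1 (-1.73), Nnt (-1.60), Lrtm1 (-1.49), Kcnab1 (-1.25), Akap13 (-1.21), Ttn (-0.80), Esrrg (-0.78), Ppargc1b (-0.69), Esrrb (-0.49), Camk2b (-0.47) and Chrnb1 (-0.44). Of 37 or 38 alternatives for each, Esrrg passed in 9, Ttn in 12, Hba-a2 in 14, Esrrb and Nnt in 16, Rangrf in 18, Chrnb1 in 20, Myl1 in 21 and Akap13 in 29, and the others in at least 33. Ostn, Ces1d and Lrtm1 passed in all 38.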

How the results depend on the processing

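For 148 of the named genes, 3922 of 3977 recomputed differences kept their direction and side of the threshold. Called genes with a change under 1.5-fold, such as Slc25a44, Yme1l1 and Bnip3, were not among these 148. The removal of MCK_SO_17 entered this total more than once. Many of these 148 were named for a large change or a small adjusted p in these same data, so this total does not describe all genes tested. Of all 6830 called genes, 4133 were called in the same direction in unscaled TPM and 3914 with the ribosomal RNA share as covariate. In these 2 settings 2144 and 83 of the called genes had an estimate of opposite sign. Genes differing between transgenic and knockout muscle at 24 months numbered 6830, 10254 (695 higher and 9559 lower) in unscaled TPM, 6970 (2235 and 4735) with TPM rescaled over nuclear protein-coding genes, 3984 over genes whose mean reached 5 TPM, 4059 with the ribosomal RNA share as covariate and 2630 with a 1.5-fold minimum. Leaving out single libraries gave 6503 to 6779. For transgenic against WT the count of 5941 became 3544 with the mean filter, 1722 with the covariate and 1968 with the fold minimum (5604 to 5853 without single libraries). Its 2979 higher and 2962 lower genes were 849 and 7714 unscaled, 1872 and 3895 rescaled, and 3874 and 1499 without mitochondrial genes and unprocessed pseudogenes. For knockout against WT, 2809 (1292 and 1517) became 6702 (6359 and 343) unscaled, 3907 (3398 and 509) without mitochondrial genes and pseudogenes and 554 with the fold minimum (2411 to 2678 without single libraries). The fold minimum removes calls by construction, the mean filter tests fewer genes, and otherwise the cause was not tested.

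The count of age-dependent genes, 526, was 167 unscaled, 262 with no filter, 192 with only the groups compared, 330 with array weights, 105 with the covariate and 252 with the fold minimum. It was 215 without MCK_SO_17, 213 without MKO_SO_23 and MKO_SO_32, and 129 without mitochondrial genes and unprocessed pseudogenes, the last 2 chosen after seeing the data. Single libraries left out gave 211 (MKO_3259) to 1017 (MKO_3248). The count also moved past 1.5 times without MCK_SO_31 (792), MKO_SO_68 (326), MKO_SO_85 (319), MCK_3890 (307), MCK_SO_59 (300), MCK_3875 (293), MKO_SO_32 (286), MKO_SO_87 (269) and MCK_3876 (341).

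Single libraries left out gave 3.25 to 3.41 for the Ppargc1a difference, 17.9 to 20.9 percentage points for the mitochondrial share and -2.97 to -2.47 for the log2 ribosomal RNA share. Unscaled, the estimates changed sign for Nrf1 (-0.61), Gabpa (-0.69), Hrc (-0.02), Col4a1 (-0.14), Pecam1 (-0.15), Fabp4 (-0.11), Ostn (-0.74), Tmem267 (-0.10) and Ces1d (-0.12), and Lars2 read 1.04 with the covariate. No paired analysis was possible because the columns of the table carry no replicate numbers of the labels. Depth is unknown, so the counting error of low genes could not be modelled apart from the spread between libraries.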

Other observations

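Lipid storage genes moved both ways. Of 20 genes of lipid uptake and droplets, 11 were higher and 6 lower in transgenic than in knockout muscle at 24 months (median 0.39; 3 and 10 without scaling). Among all genes tested, 27.4% were higher and 27.7% lower, and the lower count of the list lay near that share. Pnpla2, the first lipase of triglyceride breakdown, measured 193 to 243 scaled TPM in transgenic and 53.9 to 63.1 in knockout libraries, without overlap (1.87 ± 0.11). The droplet coat gene Plin5 was higher at 12.5 to 15.9 against 3.14 to 4.71 (1.68 ± 0.18), whereas Plin2, another coat gene, was lower at 11.4 to 13.9 against 25.3 to 31.6 (-1.09 ± 0.09). Slc27a1, a fatty acid transporter, differed by 1.47 ± 0.13.

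Antioxidant genes also moved both ways. Of 23 antioxidant genes 11 were higher and 5 lower, against 27.4% and 27.7% of all genes (median 0.22; 4 and 15 without scaling). Sod2, the mitochondrial superoxide dismutase, measured 324 to 389 against 69.5 to 77.4, with WT at 108 to 138 (2.26 ± 0.10), and no group overlapped another. Prdx5, a peroxiredoxin, measured 197 to 367 against 58.8 to 67.0 (1.90 ± 0.13). Gpx3, a secreted glutathione peroxidase, and Gsr, glutathione reductase, were lower (-1.01 ± 0.17 and -0.76 ± 0.06).

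Of 24 glycolysis and glycogen genes 8 were higher and 9 lower, against 27.4% and 27.7% of all genes (median -0.02), and this depended on scaling. The counts were 5 and 17 under quantile normalization, 3 and 12 with TPM rescaled over nuclear protein-coding genes, 0 and 21 unscaled, and 7 and 4 with the ribosomal RNA share as covariate. Phka1, a regulatory subunit of muscle phosphorylase kinase, measured 41.6 to 58.8 against 103 to 121 without overlap (-1.11 ± 0.08), and Pygm, muscle glycogen phosphorylase, 1233 to 2470 against 2379 to 2983, which overlapped (-0.77 ± 0.12; limma adjusted p = 0.0643 with the ribosomal RNA share as covariate). Ldhb, the heart-type lactate dehydrogenase subunit, measured 348 to 473 against 170 to 189 (1.18 ± 0.17; 0.28 without scaling, limma adjusted p = 0.0879). Ldha, the muscle-type subunit, differed by -0.70 ± 0.11.

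Of 15 clock genes 9 were lower and 0 higher (median -0.38), where 27.7% and 27.4% of all genes were. With the ribosomal RNA share as covariate 3 clock genes were lower. Cry2, a repressor of the clock, measured 4.15 to 7.11 against 12.5 to 14.0 and did not overlap (-1.18 ± 0.08). The time of day of sampling is not given in the sources used here. In the integrated stress response list 3 of 13 genes were higher and 3 lower, near the shares of all genes. Its member Vldlr, a lipoprotein receptor, measured 11.1 to 13.1 against 26.2 to 34.4 (-1.26 ± 0.07). Extracellular matrix genes were higher in 4 and lower in 9 of 32 (median -0.08), the lower count being near the share of all genes. Timp2, a metalloproteinase inhibitor, measured 8.66 to 10.6 against 20.1 to 26.1 (-1.11 ± 0.07), and Col4a1, a basement membrane collagen, 12.4 to 24.0 against 8.33 to 12 (0.70 ± 0.13; -0.14 without scaling). Senescence and cell-cycle genes were higher in 5 and lower in 4 of 12 (2 and 5 with TPM rescaled over nuclear protein-coding genes), and glucose uptake genes higher in 3 and lower in 4 of 15.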
